A study of Homo sapiens with 191 samples.

Results

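The regions described here are the accessible sites of GM12878 that lay in gene deserts. From a list of 50000 accessible regions of equal width, those were taken whose centre was outside every protein-coding gene body and more than 100 kb from every annotated transcription start site (TSS) of a protein-coding gene, on the hg19 build. They numbered 5905, or 11.8% of the list (exact binomial 95% interval 11.5 to 12.1). The rule used position only, not the strength of the signal.

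GM12878 is a lymphoblastoid line, that is, human B cells made to grow without limit by Epstein-Barr virus. Cells were fixed, permeabilised, transposed in bulk without antibody staining and sorted singly into wells, and the libraries (96 on plate 1 and 95 on plate 2) make up 1 group. The values come from 1 list called by the authors on the aggregated cells, so no value exists here for a single cell or plate, there are no replicates, and no test between conditions was possible. All cells are of 1 cell line, the number of fragments behind a region is unknown from the list, and intervals given below cover counting error only. Of 10 B cell marker genes, 8 had a listed region within 1 kb of a TSS (CD79A, CD79B, MS4A1, PAX5, EBF1, BLK, POU2AF1 and BTK), against 1 of 6 T cell markers (CD8A) and 2 of 6 myeloid markers (CD14 and LYZ).

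Gene deserts are long stretches of the genome with no protein-coding gene. Accessible sites within them are often distal enhancers, which can act on a promoter far away, or sites bound by CTCF, the factor that helps to shape chromosome loops, and others are promoters of long non-coding RNAs (lncRNAs). In B cells, distal elements are commonly bound by PU.1, RUNX, EBF1, E2A, NF-kB and the BATF-IRF pair of factors. The nearest gene is given below as a position, since which gene a distal site acts on was not measured.

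The sequences of 5 members are given as examples, chosen by score or motif and not as typical members. Each is a window of the GRCh37 (hg19) reference, plus strand, at the centre of the region. The first is the desert region of highest score, with its CpG dinucleotides in capitals, and the others are high-scoring members with the named motif near the centre, the match in capitals (in the CDH18 region, a pair of overlapping matches). The first is shown for its score, and the others because they carry motifs counted further below. A match is a description of letters, not a measured binding event.
PRKX region, chrX:3733006-3733126: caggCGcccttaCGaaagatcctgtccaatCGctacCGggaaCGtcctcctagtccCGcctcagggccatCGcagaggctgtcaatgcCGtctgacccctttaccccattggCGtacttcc
NF-kB match, CDH18 region, chr5:18698666-18698786: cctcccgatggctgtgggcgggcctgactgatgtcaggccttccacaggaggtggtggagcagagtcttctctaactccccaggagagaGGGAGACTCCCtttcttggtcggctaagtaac
AP-1 match, FOXO1 region, chr13:41019801-41019921: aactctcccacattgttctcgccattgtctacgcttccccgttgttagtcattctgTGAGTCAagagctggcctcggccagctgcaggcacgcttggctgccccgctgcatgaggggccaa
BATF-IRF composite, SOX9 region, chr17:70417462-70417582: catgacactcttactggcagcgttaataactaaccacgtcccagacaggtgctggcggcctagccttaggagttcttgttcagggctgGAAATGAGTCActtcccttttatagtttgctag
CTCF match, immunoglobulin heavy chain region, chr14:107238975-107239095: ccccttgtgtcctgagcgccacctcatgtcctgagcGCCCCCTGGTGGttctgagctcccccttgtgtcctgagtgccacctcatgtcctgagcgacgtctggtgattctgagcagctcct

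Desert regions were sparse. The sequence that meets the same rule spans 818 Mb, 28.9% of the 2836 Mb without N on chromosomes 1 to 22 and X, and held 7.22 listed regions per Mb (exact Poisson 95% interval 7.03 to 7.40). Intergenic sequence within 100 kb of a TSS, outside promoters, held 15.9 per Mb (15.6 to 16.2), the whole list 17.6 per Mb, and promoters (within 1 kb of a TSS) 130 per Mb. Sequence inside a gene but over 100 kb from a TSS held 7.39 per Mb (6.92 to 7.87), an interval that overlaps that of the deserts.

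The density fell with distance and then levelled off. It was 12.6 regions per Mb between 50 and 100 kb from a TSS, 9.68 (9.29 to 10.1) between 100 and 200 kb, 7.75 (7.30 to 8.22) between 200 and 300 kb, 6.34 (5.97 to 6.72) between 300 and 500 kb, and 5.04 (4.72 to 5.38) between 500 and 1000 kb. Beyond 1 Mb, 439 members (7.43%) gave 5.76 per Mb (5.23 to 6.32), whose interval overlaps that of the preceding distance class. The median member lay 248381 bp from a TSS, against 323397 bp for desert sequence.

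**Figure D1:**
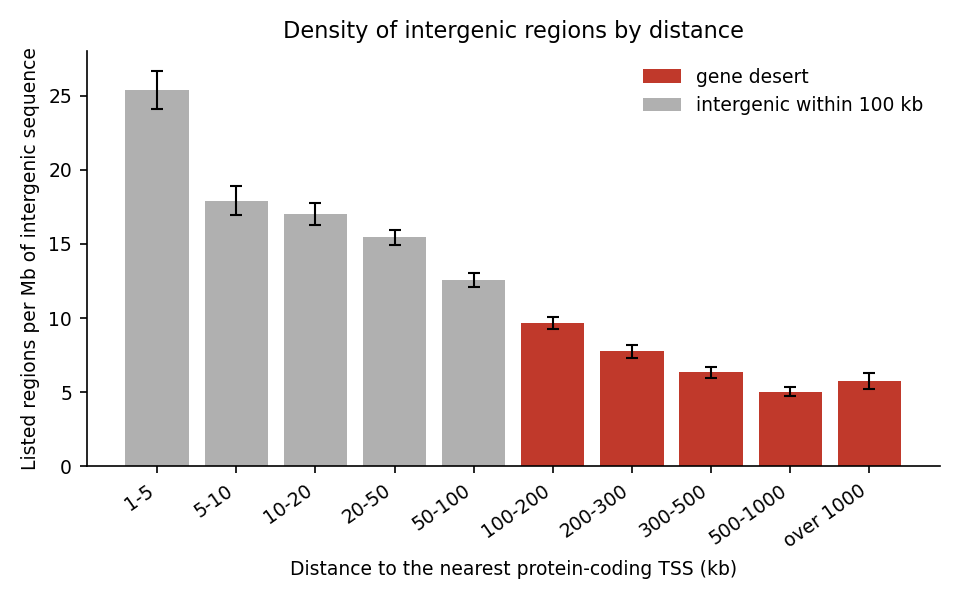
Listed intergenic regions per Mb of intergenic sequence (vertical axis) by distance from the nearest protein-coding TSS in kb (horizontal axis), with exact Poisson 95% intervals as error bars and the desert classes in red. The bars fall from 25.4 per Mb at 1 to 5 kb to 5.04 at 500 to 1000 kb, and the class over 1000 kb stands at 5.76.

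The 5 members farthest from any protein-coding TSS were all on chromosome 4. Of these, 4 lay between PCDH7, a protocadherin gene, and ARAP2, a gene for a regulator of small GTPases. The farthest, chr4:33580692-33581192, was 2467 kb from ARAP2 and had a score of 21.4. Its neighbour at chr4:33581628-33582128 had a score of 34.7, and those at chr4:33609039-33609539 and chr4:33748990-33749490 had scores of 17.3 and 78.5. The fifth, chr4:180788376-180788876 (score 25.7), lay 2277 kb from TENM3, a teneurin gene of neuronal wiring. Of the 5, those of 34.7 and 78.5 were above the list's median score of 31.6.

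Strength was read from the score of each region, in which the authors gave the -log10 q-value of the summit, and served only to rank regions. Desert regions had a median score of 22.8 (quartiles 18.7 and 36.2). The median was 27.2 for intergenic regions within 100 kb, 21.4 for regions inside a gene over 100 kb from a TSS, 64.3 for promoters and 31.6 for the whole list. Many desert regions stood at the end of the list. The lowest score, 16.0, was held by 657 members (11.1%, 10.3 to 12.0), against 6.20% of the list and 10.5% (8.63 to 12.7) of regions inside a gene over 100 kb from a TSS, whose interval overlaps that of the members. Scores of 100 or more were held by 481 members (8.15%, 7.46 to 8.87), against 12.5% of intergenic regions within 100 kb and 19.7% of the list. Scores of 500 or more were held by 31 members (0.525%, 0.357 to 0.744), against 3.65% of the list and 1.02% of intergenic regions within 100 kb. Of regions inside a gene over 100 kb from a TSS, 1 (0.106%, 0.00269 to 0.591) had such a score, an interval that overlaps that of the members. The share with a score of 100 or more was 10.9% between 100 and 200 kb from a TSS and 5.24% beyond 1 Mb.

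**Figure D2:**
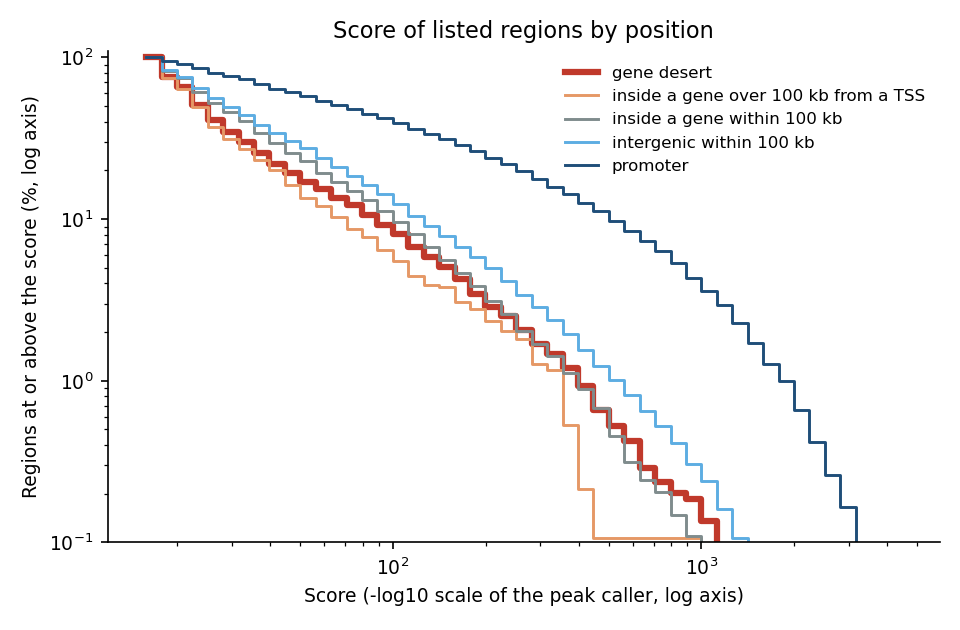
Percentage of regions at or above a given score (vertical axis, log) against the score in -log10 units (horizontal axis, log) for 5 classes of listed regions. At a score of 100 the gene desert line stands at 8.15%, between that of regions inside a gene over 100 kb from a TSS (5.53%) and those of intergenic regions within 100 kb (12.5%) and promoters (39.2%).

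Although the median was low, a few desert regions were among the strongest sites of the line. The highest score, 2525, belonged to chrX:3732816-3733316, 101.4 kb from PRKX, a protein kinase gene, and ranked 43 in the list. It had 62.9% GC and 44 CpG dinucleotides, and its centre was 4899 bp from the nearest non-coding TSS. The next, chr3:75484297-75484797 (score 2088), was 30 bp from the TSS of the lncRNA gene LINC02018 and 229 kb from FRG2C. The third, chr7:25901917-25902417 (score 1501), was 290 kb from NFE2L3, a gene of a CNC-family transcription factor. These 3 regions and those nearest to ZFAT (score 1095), STARD13 (1054) and PKDCC (952) were rich in CpG, with at least 50% GC and an observed-to-expected CpG ratio of at least 0.6, the features of a CpG island.

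The other 4 of the 10 strongest members lacked those features. The region at chr5:18698476-18698976 (score 1380.1), 780.0 kb from the neuronal cadherin gene CDH18, held CTCF, NF-kB and IRF matches. The region at chr1:235147543-235148043 (score 1062), 135.4 kb from TOMM20, which encodes a receptor of the mitochondrial import machinery, held AP-1, RUNX and NF-kB matches, and 44.4 kb from it lay an assembly gap of 50 kb or more. The region at chrX:108514090-108514590 (score 1035), nearest to GUCY2F, a retinal guanylate cyclase gene, held NF-kB, IRF and E2A matches. The region at chrX:82890059-82890559 (score 915), nearest to POU3F4, a neural transcription factor gene, held IRF, E2A and CRE (TGACGTCA) matches.

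Repeated sequence was more frequent among the members than in the list. The central 32 bases of 673 members (11.4%, 10.6 to 12.2) occurred again elsewhere in the reference on either strand, against 7.19% of the list and 9.58% (9.05 to 10.1) of intergenic regions within 100 kb. The share of regions inside a gene over 100 kb from a TSS was 9.99% (8.15 to 12.1), an interval that overlaps that of the members. Of the 10 strongest members, the FRG2C region had 2 copies of its centre and the POU3F4 region 41. Of the 31 members with scores of 500 or more, 4 had a recurring centre. The median score was 20.0 for members with a recurring centre and 22.8 for the others. Whether reads from other copies contributed to those regions was not tested.

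Most members stood alone. With members joined at centres up to 10 kb apart, 3822 (64.7%) had no other member at that distance, and 223 clusters of at least 3 held 903 members (15.3%), of which 53 clusters had 5 or more and 4 had 10 or more. A listed region of any class lay within 10 kb of 35.6% of members (34.4 to 36.9), against 62.1% of the list. No listed region lay within 100 kb of 1068 members (18.1%, 17.1 to 19.1), a share close to the 17.7% (15.4 to 20.3) of regions inside a gene over 100 kb from a TSS and above the 5.03% of the list. The most isolated, chr15:20559328-20559828 (score 20.0), was 1409 kb from any other listed region.

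Members in clusters scored higher. The median was 21.4 for single members, 24.3 for pairs, 34.7 for clusters of at least 3 and 40.9 for those of at least 5, and the share with a score of 100 or more was 4.50%, 11.0%, 19.8% and 23.9%, respectively. Part of the grouping came from several summits within 1 called region, since 36.1% of members in clusters of at least 3 shared a called region with another summit. How far such shared regions set the higher scores in these clusters was not tested. Members in these clusters were also more often within 1 kb of a non-coding TSS (15.3%) than single members (6.25%).

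The cluster placed first by number of members, with ties ordered by summed score, held 15 members over 36.8 kb at chr6:113947090-113983862. It lay between 195 and 231 kb upstream of MARCKS, which encodes a membrane-bound substrate of protein kinase C. Its strongest members had scores of 624 and 318, side by side, and the other 13 stood between 16.0 and 78.5. An equally large cluster lay at chr2:8609881-8629271, upstream of ID2, which encodes an inhibitor of E-protein transcription factors. Its scores were more even, from 18.7 to 176.2, with a median of 42.5, and all 15 members lay inside lncRNA genes, among them LINC00299 and LINC01814.

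The cluster of 13 members near TOMM20, chr1:235090801-235127137, had its highest scores, 309 and 300.1, in separate parts of the cluster, and a median of 39.4. The cluster of 10 at chr12:92933181-92955192, nearest to PLEKHG7, had 2 members with scores of 100 or more (309 and 110.1) and a median of 30.2. The cluster of 9 at chr17:70403478-70422134 lay between SOX9, a developmental transcription factor gene, and SLC39A11, a zinc transporter gene, wholly inside the lncRNA gene LINC00511. Its scores ranged from 30.1 to 525 with a median of 85.8, and 7 of its 9 members were within 1 kb of a non-coding TSS.

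Of the other clusters among the 10 with most members, those nearest to CADM1, an adhesion molecule gene (9 members, chr11:115790204-115810887), and STT3B, an oligosaccharyltransferase gene (9 members, chr3:31270858-31290483), were weak, with highest scores of 106.3 and 54.1. Those nearest to POU5F1B, a retrogene copy of OCT4 (8 members, chr8:128208533-128223188), BUB3, a spindle checkpoint gene (8 members, chr10:125150375-125162444), and BCOR, which encodes a corepressor that binds BCL6 (8 members, chrX:39712790-39734172), had median scores of 124.1, 74.2 and 82.2.

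**Figure D3:**
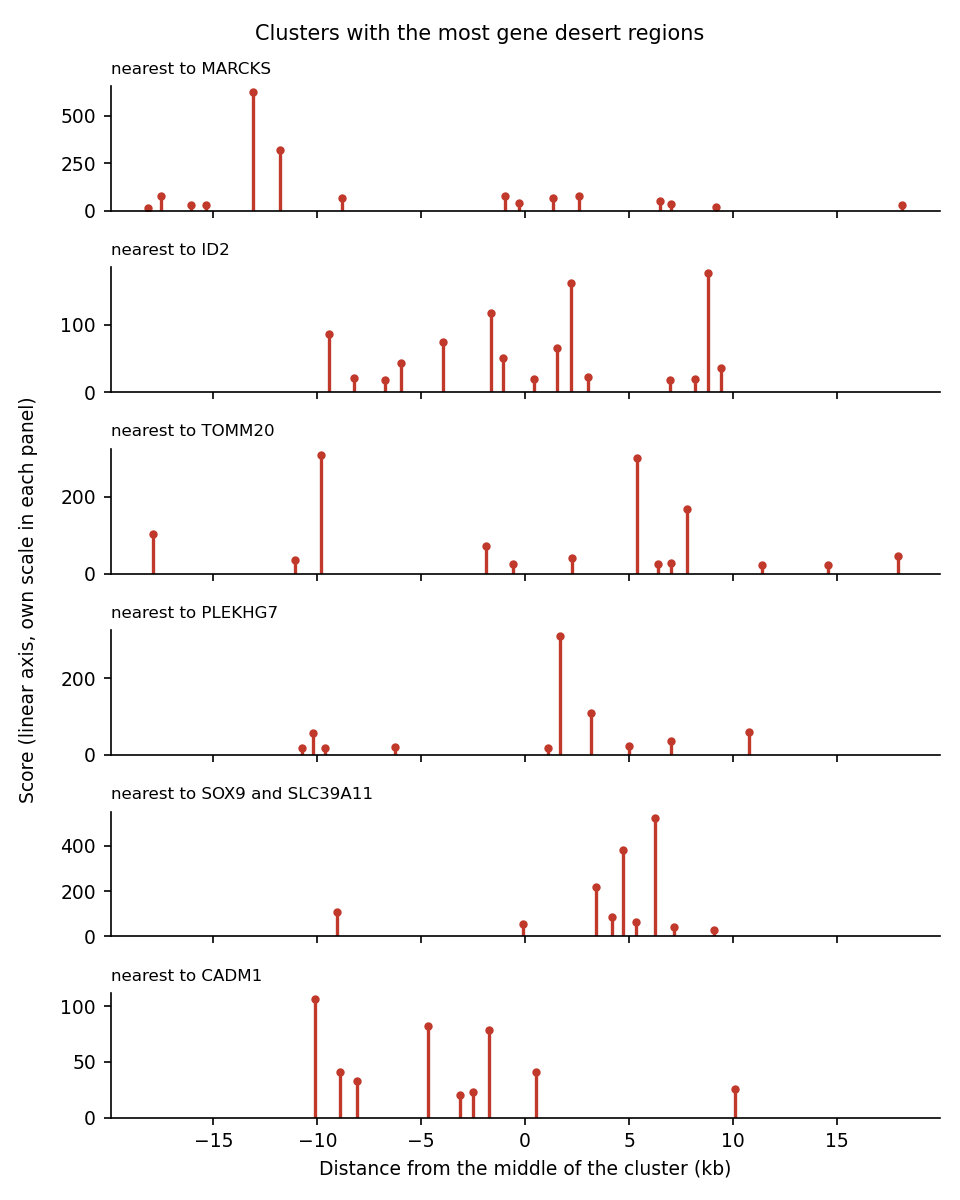
Score of each member (vertical axis, linear, own scale in each panel) against its distance in kb from the middle of the cluster (horizontal axis) for the 6 clusters with the most members. In the MARCKS panel a pair of members at 624 and 318 stands over 13 members at or below 78.5, whereas the ID2 panel has 3 members above 100 spread over the cluster.

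Desert sequence is divided by protein-coding genes into 1836 gene-free intervals, of which 1132 (61.7%) held a member, and the 10 with most members held 6.49% of all members. The interval between RNF144A and ID2, chr2:7208418-8818974, held the most, 70 members, or 47.2 per Mb (36.8 to 59.7), 44 of them in 7 clusters of at least 3. It was also the densest of the 508 intervals with at least 0.5 Mb of desert sequence, whose median density was 6.01 per Mb. It was followed by MYC to GSDMC (37 members, 20.4 per Mb), OTOL1 to SI (37, 10.9 per Mb), SOX9 to SLC39A11 (36, 89.0 per Mb), AGA to TENM3 (36, 8.00 per Mb), QKI to C6orf118 (35, 23.2 per Mb), PABPC4L to PCDH18 (34, 10.9 per Mb), PCDH7 to ARAP2 (34, 7.12 per Mb), IRF2BP2 to TOMM20 (32, 94.9 per Mb) and BTG1 to PLEKHG7 (32, 89.6 per Mb).

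The shorter and the longer of these intervals differed in grouping. Because they were chosen by number of members, a short interval could enter only with a high density. Dense members also join more readily at 10 kb, and how far this set the difference in grouping was not tested. In the intervals of SOX9, IRF2BP2 and BTG1, each with at most 0.405 Mb of desert sequence, 31 of 36, 30 of 32 and 23 of 32 members were in clusters of at least 3, and the median scores were 50.7, 41.8 and 33.1. In the 4 intervals with over 3.1 Mb of desert sequence, 4 of 37 members between OTOL1 and SI and none between AGA and TENM3, PABPC4L and PCDH18 or PCDH7 and ARAP2 were in such a cluster. The density in these 4 was between 7.12 and 10.9 per Mb, and the median scores were 20.0, 20.0, 20.0 and 21.4, respectively. Of the 508 longer intervals, 31 held no member. The largest empty one, with 1.46 Mb of desert sequence, lay between CA10 and KIF2B on chromosome 17, followed by HDGFL1 to NRSN1 on chromosome 6 with 1.36 Mb.

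By nearest protein-coding gene, 1576 genes had at least 1 member, which is 52.4% of the 3008 genes that are nearest to some desert sequence. A region within 1 kb of the TSS of its nearest gene was present for 68.6% of members, against 58.5% of desert sequence. ID2 led with 53 members, all upstream, between 101.8 and 647 kb from its TSS, with a median score of 42.5 and 41 of them in clusters of at least 3. MYC, a growth-promoting transcription factor gene, had 30 members between 109.4 and 918 kb away (median score 29.4). Of these, 1 was upstream and the rest downstream. The cluster of 8 members nearest to POU5F1B also lies upstream of MYC, but is counted under POU5F1B. TBL1XR1, a corepressor gene, had 29 (highest score 685), PLEKHG7 27 and SLC39A11 26. PCDH7 (26), TENM3 (25), SLITRK1, a neuronal transmembrane protein gene (24), and PABPC4L, a gene for a poly(A)-binding protein (24), had medians between 20.0 and 22.1 and none of their members in a cluster of at least 3. TOMM20 had 23 members with a median of 39.4.

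Gene lists were compared by the density of members in the desert sequence nearest to their genes, beside 7.22 per Mb over all genes. The densities are descriptions, and differences between lists were not tested. Density fell with distance from a TSS, and list genes had members at unlike distances, up to 305 kb for CXCR4 and 2027 kb for CDH9. The densities were not adjusted for distance, and its part was not tested. For germinal centre and plasma cell genes the density was 31.7 per Mb (20.7 to 46.5, 26 members of 3 genes). CXCR4, the receptor that guides B cells within the germinal centre, had 18 members, all upstream, between 107.04 and 305 kb from its TSS, with a highest score of 402 and 13 in clusters of at least 3. BCL6, the repressor that sets the germinal centre programme, had 5 members with a highest score of 395. PRDM1, the gene of the plasma cell factor BLIMP1, had 3 with a highest score of 47.4.

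Genes of apoptosis and cell cycle control had 25.2 members per Mb (18.4 to 33.7, 45 members). Of these, MYC had 30, MYCN 2 and CCND2, the cyclin D2 gene, 13 in 0.0981 Mb of desert sequence, 12 of them in clusters. Genes of cytokine receptors and homing had 17.7 per Mb (8.84 to 31.7), with 10 members at S1PR1, the receptor for lymphocyte exit from tissues, 3 of them with scores of 100 or more. Cytokine and chemokine genes had 11.9 per Mb (5.94 to 21.3), with 9 members at IL12B, which encodes a subunit of IL-12 and IL-23. B cell identity genes had 9.53 per Mb (6.56 to 13.4, 33 members). Of these, ETS1 had 11, MEF2C 7, EBF1 5, FOXO1 4 (3 of them with scores of 100 or more, the highest 680.2) and BCL11A 4 with none above 18.7. NF-kB and TNF signalling genes had 8.91 per Mb (3.27 to 19.4), from CD83 (3), TNFSF4 (2) and TNFSF11 (1).

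For the T cell, neuronal and myeloid lists the densities were lower than over all genes. T cell genes had 3.72 per Mb (1.92 to 6.50), of which GATA3 had 7 members, BCL11B and TOX 2 each and LEF1 1, and neuronal genes had 4.31 per Mb (3.21 to 5.67, 51 members). Among the latter, CDH18 and PCDH9 had 10 each and CDH9 and CDH10 8 each, and LRRTM4 had 5. Myeloid genes had 1 member, at VCAN, hepatocyte genes 2, both at CPS1, and housekeeping genes 0 in 0.0245 Mb. Developmental transcription factor genes had 195 members in 23.1 Mb, or 8.46 per Mb (7.31 to 9.73). ID2 led with 53 in 0.741 Mb, or 71.5 per Mb, so the density of this list leans on 1 gene. It was followed by SOX9 (14), NR2F2 (14), NR2F1 (12) and SOX11 (10).

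The density of members varied between chromosomes, also where they had like shares of desert sequence. Chromosome 3 held 10.0 members per Mb of desert sequence (9.20 to 10.9), chromosome 8 9.55 and chromosome 2 9.31, with 28.0%, 32.9% and 32.9% of their sequence in deserts. Chromosome 13, at 44.3% the richest in deserts, held 6.29 (5.55 to 7.09), and chromosome 21, at 36.4%, held 3.44 (2.50 to 4.62). The lowest densities were 1.44 on chromosome 22 and 1.77 on chromosome 19, with 7 members each. Chromosome X held 5.11 (4.51 to 5.77).

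**Figure D4:**
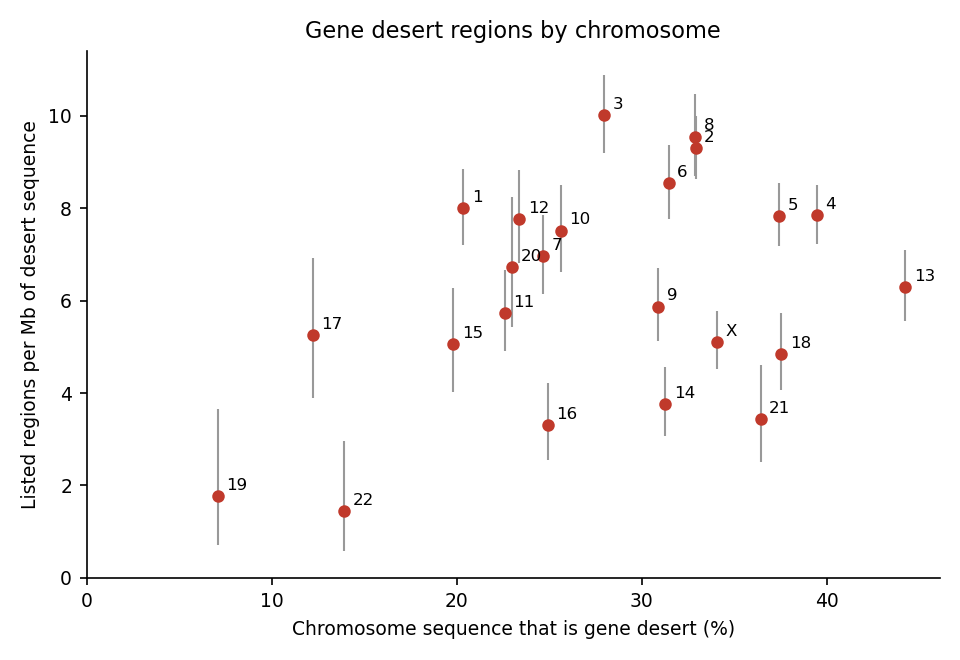
Gene desert regions per Mb of desert sequence (vertical axis) against the percentage of each chromosome's sequence that is gene desert (horizontal axis), 1 labelled point per chromosome with exact Poisson 95% intervals as bars. Chromosomes 19 and 22 lie lowest at 1.77 and 1.44, and chromosome 3 highest at 10.0.

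A TSS of a non-coding gene was more frequent at members than in desert sequence, but less frequent than over the list. The centres of 493 members (8.35%, 7.66 to 9.08) lay within 1 kb of the TSS of a gene of another biotype, against 2.68% of desert sequence, and for 381 of them that gene was a lncRNA. The share was 13.1% over the list, 14.2% for intergenic regions within 100 kb and 3.19% for regions inside a gene over 100 kb from a TSS. The median score was 36.2 (33.1 to 42.5) at such a TSS and 21.4 (21.4 to 22.8) elsewhere. In all, 2194 members (37.2%, 35.9 to 38.4) lay inside a lncRNA gene, against 32.0% of desert sequence. The lncRNA genes holding most members, chosen after their values were seen, were LINC00299 (39 members) and LINC01814 (28), which overlap beside ID2, LINC00511 (36), PVT1 (23, downstream of MYC), LINC00877 (22, nearest to PROK2 and RYBP) and FIRRE (21, median score 96.9, the highest of these).

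Few members had the features of a CpG island (2.81%, 2.40 to 3.27), against 10.6% of intergenic regions within 100 kb, 3.76% of regions inside a gene within 100 kb, 1.17% (0.585 to 2.08) of those inside a gene over 100 kb from a TSS and 68.9% of promoters. The mean GC content was 47.8% ± 5.70 (SD over members), against 53.2% over the list. The 95 island members at a non-coding TSS had a median score of 59.2 (45.8 to 104.4), the 71 elsewhere 34.7 (25.7 to 57.4), the 398 members at such a TSS without an island 33.1 (30.1 to 36.2), and the remaining 5341 members 21.4. Of the 481 members with scores of 100 or more, 355 had neither feature.

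Consensus motifs were searched on both strands of each region. They were compared with windows of the same width 2 kb to each side, outside the list, which had a mean GC content of 39.0%, so that shares of GC-rich motifs move with base composition and its part was not tested. The CTCF consensus was in 2.68% of members (2.28 to 3.12), against 0.115% of flanking windows, 2.30% of the list and 4.11% of intergenic regions within 100 kb. NF-kB was in 14.3% of members (13.5 to 15.3) against 5.14% of flanks and 17.9% of the list, and EBF1 (CCCNNGGGA) in 8.76% against 3.28% and 12.7%. E2A (CACCTG) was in 44.4% against 27.3% and 42.3%. The PU.1/SPIB consensus GAGGAAGT was in 4.62% (4.10 to 5.19) against 2.32% and 5.14%, and RUNX (TGTGGTT) in 13.9% (13.0 to 14.8) against 10.0% and 11.6%. In intergenic regions within 100 kb the E2A and RUNX shares were 45.7% and 13.7%. In regions inside a gene over 100 kb from a TSS they were 43.8% and 13.9%, so both classes stood close to the members.

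AP-1 (TGANTCA) was in 1247 members (21.1%, 20.1 to 22.2), against 16.0% of flanks, 16.9% of the list and 9.01% of promoters. The AP-1 share was close to that of members in intergenic regions within 100 kb (20.7%) and inside a gene over 100 kb from a TSS (19.8%). The BATF-IRF composite, which contains an AP-1 site next to an IRF half-site in either of the arrangements searched, was in 53 members (0.898%, 0.673 to 1.17), against 0.168% of flanks and 0.596% of the list. It was in 0.911% of intergenic regions within 100 kb and 0.744% of regions inside a gene over 100 kb from a TSS. The promoter motifs SP/KLF, ETS and CRE were less frequent than in the list but more frequent than in the flanks. SP/KLF (GGGGCGGGG) was in 1.71% of members, 0.345% of flanks and 10.1% of the list. The shares of ETS (CCGGAAGT), whose core is shared with PU.1/SPIB, were 0.610%, 0.177% and 2.76%. Those of the CRE consensus were 0.406%, 0.0972% and 1.27%. Several AT-rich motifs were less frequent than in the flanks. These were the IRF consensus GAAANNGAA (17.4% against 20.2%), octamer ATGCAAAT (3.66% against 5.45%), the GATA-factor consensus AGATAAG (5.76% against 8.09%) and the FOX consensus TGTTTAC (6.64% against 8.70%).

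Strong members held more of most of these motifs. Between members with scores under 20 (2031) and those with 100 or more (481), the share with AP-1 was 16.9% (15.3 to 18.6) and 28.7% (24.7 to 33.0), with RUNX 10.5% and 21.4%, with NF-kB 11.5% and 20.4%, with EBF1 7.19% and 14.3%, with PU.1/SPIB 3.79% and 9.56%, with IRF 14.7% and 22.7%, with CTCF 1.23% and 4.37%, and with SP/KLF 0.640% and 6.03%. The E2A share was 43.7% (41.6 to 45.9) and 43.2% (38.8 to 47.8), with overlapping intervals. Mean GC content was 47.2% for scores under 20 and 50.2% for scores from 100 to 500, and its part in these shares was not tested.

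**Figure D5:**
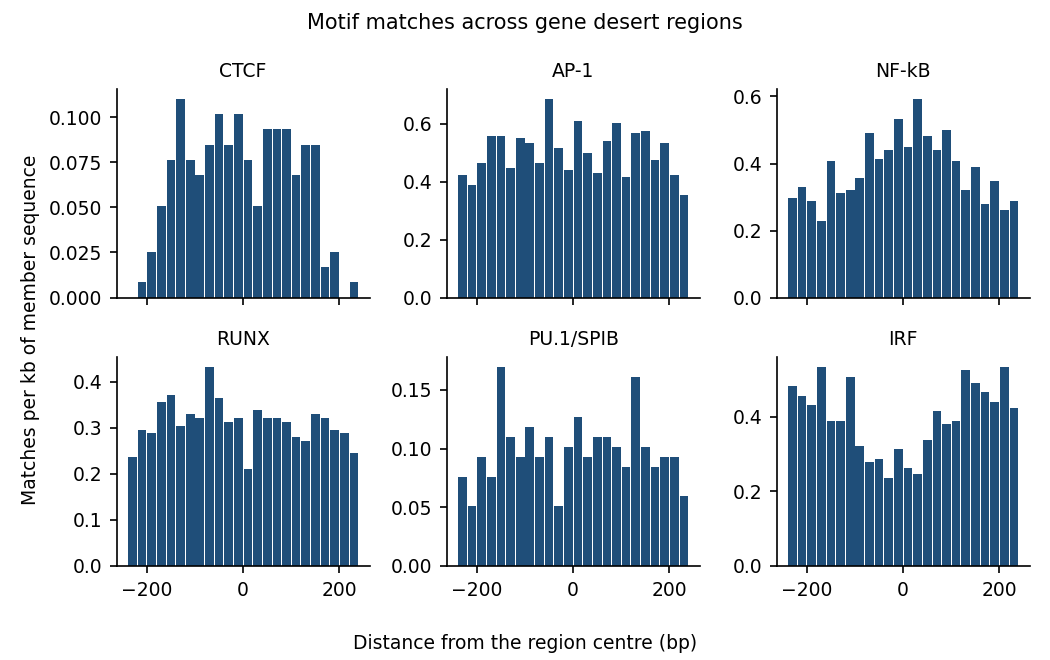
Motif matches per kb of member sequence (vertical axis, own scale in each panel) in steps of 20 bp by distance in bp from the region centre (horizontal axis), for 6 motifs over all 5905 members. NF-kB is denser within 50 bp of the centre (0.495 per kb) than at its edges, over 200 bp away (0.295), CTCF matches nearly cease beyond 200 bp (0.0056 per kb), and IRF has fewer matches at the centre (0.270) than at the edge (0.501).

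Immunoglobulin and T cell receptor segments are not counted as protein-coding genes in the annotation, so their loci can meet the rule. Within 50 kb of such a segment lay 40 members, 22 of them at the immunoglobulin heavy chain locus (chr14:106167008-107281254, nearest protein-coding gene TMEM121), 3 at the kappa and 3 at the lambda locus. At the heavy chain locus 12 of 22 members (54.5%, 32.2 to 75.6) held the CTCF consensus, such as the window printed above from chr14:107238785-107239285 (score 151.6, 1246 kb from TMEM121), which lies near a heavy chain variable segment. Their median score was 34.7, with a range of 17.3 to 151.6. Without all 40, the CTCF share of the members was 2.47% (2.09 to 2.90). Beyond 1 Mb from a TSS, 23 of 439 members (5.24%) held the consensus, and 15 of 429 (3.50%, 1.97 to 5.70) without those near antigen receptor segments.

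At the 100 kb limit, the members just inside were 100012 bp from a TSS of ARF6 (score 206), 100047 bp from SLC24A2 (21.4) and 100089 bp from ASB3 (25.7). The intergenic regions just outside were 99992 bp from PDE3A (17.3), 99974 bp from SMARCA2 (52.4) and 99948 bp from TOMM20 (25.7).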

How the data were processed

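The assay was single-cell ATAC-seq of 1 group of GM12878 libraries on 2 plates. Per the study's methods, the authors aligned trimmed pairs to hg19, filtered them for quality, duplicates and mitochondrial origin, called summits with MACS2 on all cells together, and retained fixed windows at the most significant ones. Versions in the submitters' processing notes are Bowtie2 2.1.0 and Picard 1.79, and that of MACS2 was not given in the sources. The score was deposited as -log10 q. No counts or depths accompany it, so the depth per sample is unknown and no interval rests on reads. Whether libraries that failed the cell filter were pooled is not stated. Summits of cells with many fragments weigh more in such a pooled list, and removal of multiply mapped reads can lower accessibility at repeats.

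Regions were placed by their centre against GENCODE 44 mapped to GRCh37, whose chromosome lengths match hg19, with 20090 protein-coding symbols and every transcript start used. Coordinates are 1-based. Densities divide by sequence without N that met the same rule, read at steps of 100 bp. Clusters joined members at 10 kb, and promoters were within 1 kb of a TSS. Flanking windows with N or overlapping the list were left out. Intervals are exact binomial (Clopper-Pearson), exact Poisson, or, for medians, from order statistics, at 95%. No p-value is given.

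The members, the 12 gene lists and the 23 motifs were chosen with earlier results of these data known. Named by rule were the 10 strongest members, the 10 clusters, nearest genes and intervals with most members, the 5 farthest members, the strongest member with each motif (those nearest the centre printed for a subset), up to 5 genes per list, and members at the limit. A few items named by this rule are left out. Alternatives changed the distance, TSS set, gene set, part of the list, summits per called region, and joining and search windows. Leaving out antigen receptor loci or recurring sequence was added after seeing the data. The procedures were tested on simulated data. The work used scipy 1.17.1, pysam 0.24.0, numpy 2.4.6, pandas 2.3.3 and matplotlib 3.10.9 under Python 3.11.15.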

Additional observations from a re-analysis of the deposited data

How the results depend on the processing

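With 1 pooled list and no depth, differences within the deserts have no replicate check, and a region missing from the list may be closed or below its limit. No paired analysis was possible because the labels give 1 group. The main values were 5905 members, a median score of 22.8, 7.22 per Mb, 223 clusters of at least 3, 8.35% at a non-coding TSS, 2.68% with CTCF and 21.1% with AP-1. The number of members, and the clusters of at least 3, were 3601 and 99 at 200 kb from a TSS, and 721 and 9 with genes of every biotype counted as genes. With scores at or above the list's median they were 1775 and 78. Clusters numbered 408 at 50 kb from a TSS and 349 joined at 25 kb. The median score was 20.0 with every biotype, 57.4 for scores at or above the list's median and 24.3 without the lowest score. Densities per Mb were 8.33 at 50 kb, 6.20 at 200 kb, 7.70 with the outermost TSS, 5.61 with every biotype, 2.17 at or above the list's median, 6.41 without the lowest score, 6.89 with the strongest summit of each called region and 6.39 without recurring sequence. The share at a non-coding TSS was 9.34% at 50 kb, 7.22% at 200 kb, 16.1% at or above the list's median, 6.08% with a window of 500 bp and 19.1% with one of 5 kb. The CTCF share was 2.08% with every biotype, 4.17% at or above the list's median and 1.54% in the central 200 bp. The AP-1 share was 19.9% at 200 kb, 18.7% with every biotype, 28.2% at or above the list's median and 9.82% in the central 200 bp. Most of these alternatives change the set of regions by construction, and no other cause was tested. All other values moved by less than their interval, or, for counts, by under 1.5 times. Among these counts, clusters of at least 3 were fewer with the strongest summit of each called region. Members were more numerous at 50 kb from a TSS. The 2 alternatives added after seeing the data (without antigen receptor loci, without recurring sequence) moved only the density, in the second.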
